A study of Xenopus tropicalis with 9 samples.

Results

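The genes described here are 10 genes of gonadal sex and steroid hormone synthesis in the western clawed frog, Xenopus tropicalis. They were chosen by symbol, dmrt1, foxl2, amh, inha, star, cyp11a1, cyp17a1, cyp19a1, nr5a1 and wt1, and all 10 were found among the 30330 named genes of the tables. No numbered copy of any of the 10 was listed. RNA was sequenced in 9 libraries: male testes, female ovary, heads and hearts of each sex, and female lung, intestine and GI tract. Testes and ovary have 1 library each, so the difference between them has no replicate check. Head and heart have n = 2 each, a female and a male, and nothing in the labels says whether libraries came from separate animals. No strain, allele or treatment is given in the labels. The sample titles say adult for ovary and for the female and male head, and the other titles give no age.

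In vertebrates a bipotential gonad forms under factors such as nr5a1 and wt1 and then becomes a testis, where dmrt1 acts in supporting (Sertoli) cells and germ cells, or an ovary, where foxl2 acts in follicle (granulosa) cells. The supporting cells make the protein hormones encoded by amh and inha. Steroid hormones are made from cholesterol in steps: star brings cholesterol into mitochondria, cyp11a1 cuts its side chain to give pregnenolone, cyp17a1 leads to androgens and cyp19a1 (aromatase) turns androgens into estrogens. The same enzymes are used in the interrenal gland, the amphibian adrenal, and aromatase is also known from vertebrate brain.

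Total counts ran from 27628254 to 35044545 per library, and 3 counts, taken as the limit of a count of 0, correspond to 0.0865 to 0.109 CPM, the count scaled by the library total. Levels are the authors' TPM, which is also scaled by transcript length and so compares genes per length. Several libraries held transcripts of other tissues. Oocyte markers, 14 genes such as the egg coat gene zp4, summed to 4355 TPM in female heart, 3143 in lung and 3953 in ovary. The other 6 libraries had 3.29 to 380. The high sums rest on different genes. The gene zp4 stood at 1366 TPM in female heart, 955 in lung and 72.8 in ovary, but velo1 at 336, 331 and 1298. In testes 241 of the 380 TPM came from ybx2. The testes library held 12 of 12 male germ cell genes at 1 TPM or more, among them the meiotic genes hormad1 (473 TPM) and sycp1 (388 TPM). It also held stomach genes at a summed 24603 TPM and exocrine pancreas genes at 18315 TPM, which in ovary summed to 4.99 and 6.84 TPM. The ovary library had 14726 genes at 0 counts, against 5244 in testes. In such bulk samples fewer cells of a type and less RNA per cell cannot be told apart.

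**Figure D1:**
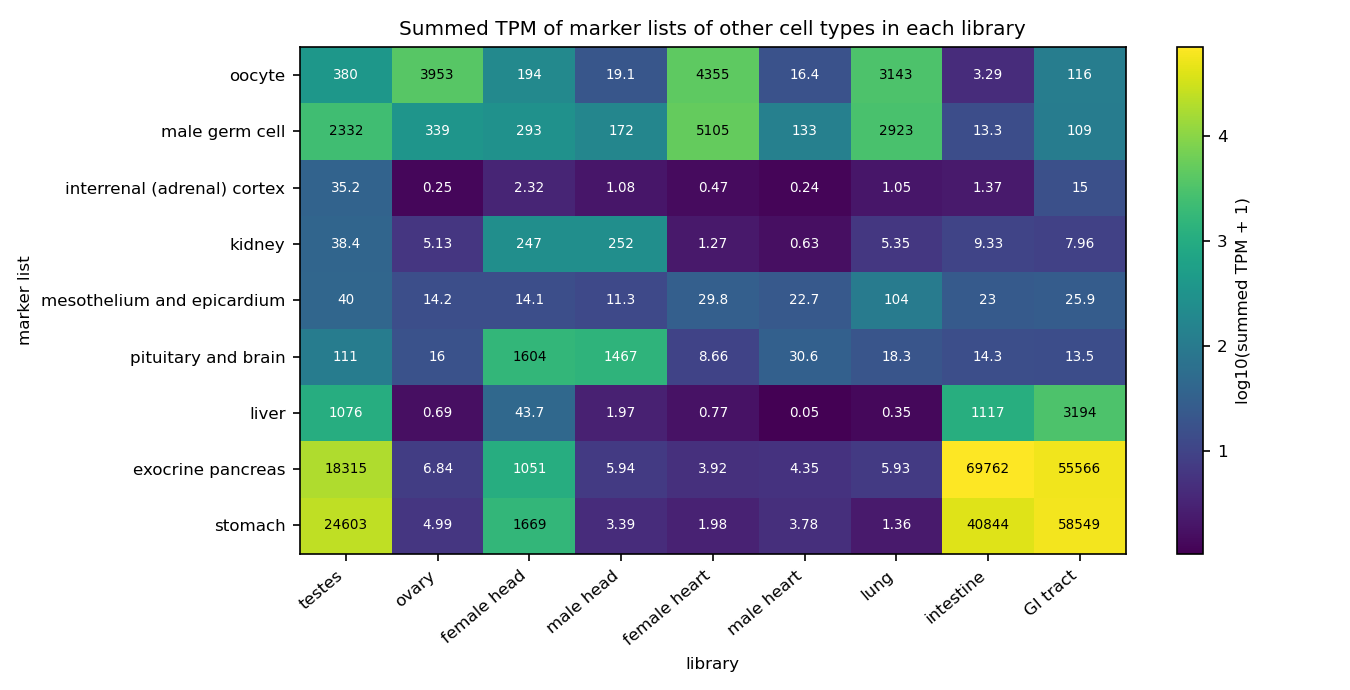
Summed TPM of the marker genes of other cell types (rows) in each library (columns), coloured by log10 of the sum plus 1 and printed in each cell. Oocyte genes are high in ovary, female heart and lung, and pancreas and stomach genes are high in testes, intestine, GI tract and female head; the male germ cell row in female heart and lung is almost all ccna1 (5094 and 2903 TPM), a cyclin also abundant in ovary (275 TPM).

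The transcription factor genes of gonadal sex were unequally represented. The testis factor gene dmrt1 stood at 116 TPM in testes (5949 counts) and 0.07 TPM in ovary (5 counts). The female head had 0.28 TPM and the male head 0.14, the female heart 0.03 and the male heart 0.02, the lung 0.07, and intestine and GI tract 0. The testes library thus held 99.4% of all dmrt1 counts, and none of the other neighbours in the order of its levels differed beyond counting error. The CPM ratio of testes to ovary was 1077, with a 95% exact interval of 461 to 3319 that covers counting error only. With TMM scaling, which assumes that most genes are level between libraries, the ratio was 373.5 (160 to 1151).

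The ovary factor gene foxl2 was low everywhere and not highest in ovary. It stood at 0.06 TPM in testes (4 counts) and 0.11 TPM in ovary (10 counts), a CPM ratio of 0.362 with an interval of 0.0829 to 1.26 that includes 1. With TMM scaling the ratio was 0.126 (0.0288 to 0.436), and the interval lay below 1. Its highest levels were 1.51 TPM in female head (104 counts) and 0.83 in male head (53 counts), followed by female heart at 0.55. It was at 0.14 in lung, 0.01 in intestine and in GI tract and 0 in male heart. In mammals foxl2 is also known from the pituitary and the eyelid, which a whole head can hold; pituitary and brain markers summed to 1604 and 1467 TPM in the heads, and their part in the foxl2 level was not tested.

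Both factors of the early gonad had counts in testes and in ovary. The nuclear receptor gene nr5a1, which encodes steroidogenic factor 1, an activator of steroid enzyme genes, stood at 12.7 TPM in testes (225 counts) and 14.8 TPM in ovary (222 counts). It reached 1.82 TPM in lung, 1.41 in female heart, 0.32 in the female head and 0.53 in the male head, with 0 counts in male heart, intestine and GI tract. The CPM ratio of testes to ovary was 0.918, with a counting interval of 0.759 to 1.11 that includes 1. On the TMM scale the same ratio was 0.318 (0.263 to 0.385), below 1. The zinc finger gene wt1, which acts in the early gonad, the kidney and the mesothelium, stood at 2.70 TPM in testes and 1.62 TPM in ovary, with a CPM ratio of 1.14 (0.969 to 1.35) and a ratio of 0.396 (0.336 to 0.467) on the TMM scale. The other 7 libraries lay between 0.01 TPM in male head and 0.33 TPM in intestine, below both gonads. The gene nphs1, a marker of kidney podocytes, stood at 3.06 TPM in testes and 0.05 in ovary, and at most 0.18 in the others. The kidney list, 12 rows, summed to 38.4 TPM in testes and 5.13 in ovary, and to 247 in female head and 252 in male head. In the heads almost all of the sum was aqp2, at 243.6 and 247.4 TPM, a gene at 0.77 TPM in testes. In that list the row slc12a3 went the other way, at 0.46 TPM in testes and 2.65 in ovary. The part of kidney tissue in the testes level of wt1 was not tested.

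The hormone gene inha, which encodes the inhibin alpha subunit, had 9006 counts (291 TPM) in testes and 0 counts in ovary. The testes level was therefore at least 2718-fold higher in CPM, with the ovary set to 3 counts. The gene was also abundant outside the gonads. It stood at 164 TPM in male heart (6174 counts), 17.4 in female heart, 12.4 in male head, 4.39 in female head, 2.28 in lung, 0.89 in intestine and 0.18 in GI tract. All neighbours down to GI tract differed beyond counting error. The male heart held no other testis gene of the set at a like level, with dmrt1 at 0.02 TPM, star at 0.30 and cyp17a1 at 0.03.

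The gene amh, which encodes anti-Mullerian hormone, was low in every library. It had 58 counts (1.19 TPM) in testes and 0 counts in ovary, so that testes was at least 17.5-fold higher in CPM. The next levels were 0.39 TPM in male heart and 0.33 in lung, and the remaining 5 libraries ran from 0.04 in female heart to 0.24 in female head. Its receptor gene amhr2 stood higher, at 20.7 TPM in testes and 0.22 in ovary.

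**Figure D2:**
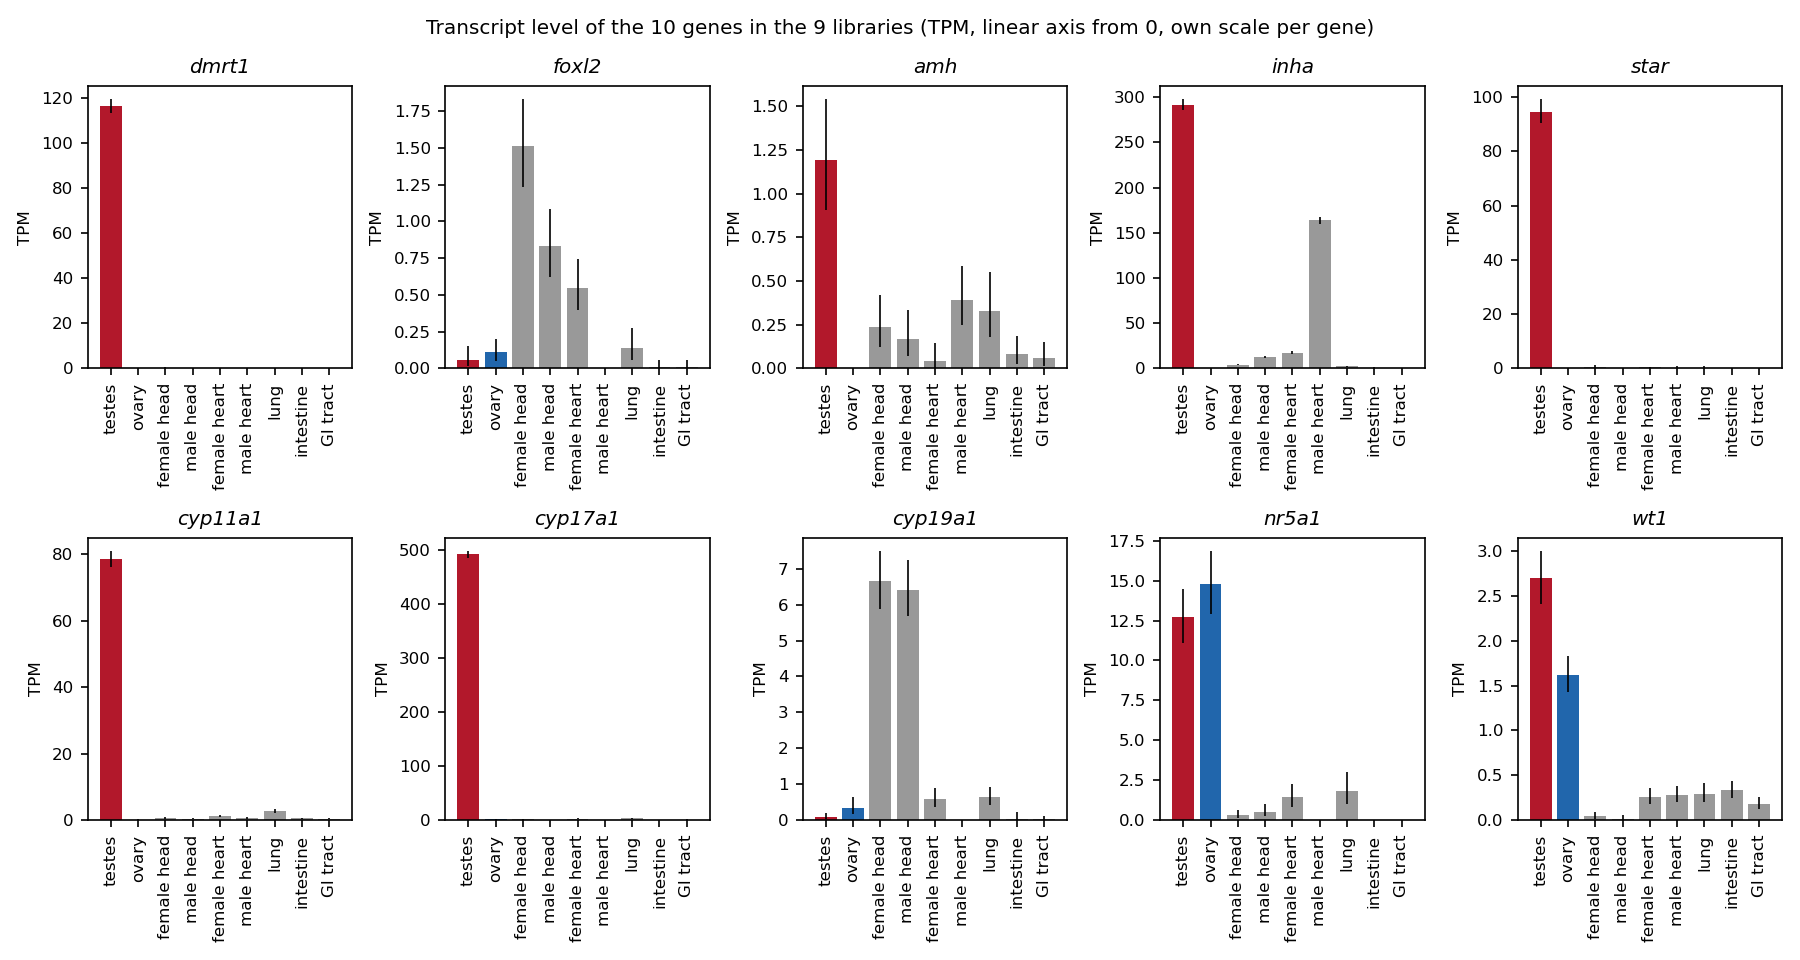
TPM of each of the 10 genes (panels) in the 9 libraries, testes in red, ovary in blue and other tissues in grey, on linear axes that start at 0 with a scale per gene; bars carry the 95% exact Poisson interval of the count. Testes leads for dmrt1, amh, inha, star, cyp11a1, cyp17a1 and wt1, the heads lead for foxl2 (1.51 and 0.83 TPM) and cyp19a1 (6.66 and 6.42 TPM), and male heart is second for inha at 164 TPM.

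The steroid synthesis genes star, cyp11a1 and cyp17a1 were abundant in testes. The cholesterol carrier gene star had 1822 counts (94.7 TPM) in testes and 0 counts in ovary. With the ovary set to 3 counts, testes was 550-fold higher in CPM and 191-fold on the TMM scale. The exact 95% lower limits were 447 and 155. The other levels of star were 0 in intestine and GI tract and 0.08 to 0.60 TPM in the 5 remaining libraries. The side chain cleavage gene cyp11a1 stood at 78.6 TPM in testes (4302 counts) and 0.05 TPM in ovary (3 counts). The CPM ratio was 1298 (444 to 6298), or 450 (154 to 2184) on the TMM scale. Ovary was the lowest of the 9 libraries for cyp11a1, below 2.67 TPM in lung, 1.28 in female heart and 0.31 to 0.62 in the others. Its counting interval overlapped that of the male head, the next lowest. The ratio of lung to ovary was 39.6 (13.2 to 194).

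The most abundant member was cyp17a1, at 491 TPM in testes (24032 counts), rank 226 of all genes there, and 0.98 TPM in ovary (63 counts). The CPM ratio was 345 (270 to 450), or 120 (93.6 to 156) on the TMM scale. Outside the gonads it stood at 2.80 TPM in lung, 2.40 in female heart, 1.0 in female head, 0.44 in GI tract, 0.19 in male head, 0.03 in male heart and 0 in intestine. Lung and female heart thus lay above ovary, at 1.75 times (1.28 to 2.42) and 1.77 times (1.3 to 2.43) its CPM. Both are libraries with oocyte genes, and the part of gonadal RNA in their cyp17a1 and cyp11a1 levels was not tested.

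Markers of the interrenal gland moved with these 3 genes in the testes library. The corticotropin receptor gene mc2r stood at 1.03 TPM in testes and at 0 in the other 8 libraries, ovary included. Its accessory protein gene mrap stood at 26.8 TPM in testes, 0.13 in ovary and at most 0.55 in the others. The corticosteroid enzyme gene cyp21a2.1 stood at 7.34 TPM in testes, 0.12 in ovary and 14.8 in GI tract. The part of interrenal tissue in the testes levels of star, cyp11a1 and cyp17a1 was not tested.

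Aromatase, cyp19a1, had its highest levels in the heads. The female head had 6.66 TPM (273 counts) and the male head 6.42 TPM (269 counts), a CPM ratio of 0.965 (0.813 to 1.15). Testes had 4 counts (0.08 TPM) and ovary 9 counts (0.34 TPM), a CPM ratio of 0.402 with an interval of 0.0906 to 1.44, or 0.14 (0.0314 to 0.5) on the TMM scale. Lung (0.64) and female heart (0.59) lay between heads and ovary, intestine (0.04) and GI tract (0.02) below, and male heart had 0 counts. Within testes the TPM of cyp19a1 was 0.001 times that of cyp11a1, against 6.80 times in ovary 12.8 times in the female head and 20.7 times in the male head. The ovary value rests on 9 and 3 counts.

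**Figure D3:**
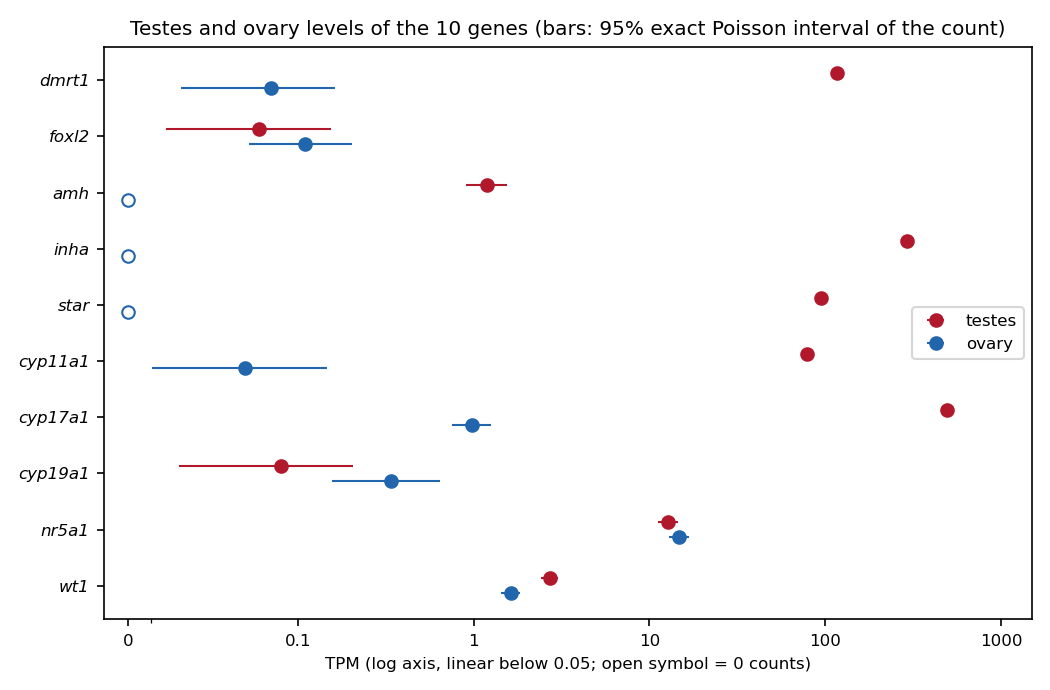
TPM of the 10 genes in testes (red, upper) and ovary (blue, lower) on a log axis that is linear below 0.05, with 95% exact Poisson intervals of the counts; open symbols mark 0 counts. The 6 genes dmrt1, amh, inha, star, cyp11a1 and cyp17a1 stand apart by their intervals, while foxl2, cyp19a1 and nr5a1 overlap. The TPM intervals of wt1, at 2.70 in testes and 1.62 in ovary, do not overlap either, though the interval of its CPM ratio includes 1.

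One model of the 9 libraries, with 1 mean for each tissue, gave the comparison of testes with ovary. Only head and heart have 2 libraries, so they alone set its spread, with 2 residual degrees of freedom, and each gonad is assumed to vary as they do. Each pair is a female and a male, so this spread also holds differences between the sexes. It holds the unlike oocyte transcripts of the hearts too, which summed to 4355 TPM in the female and 16.4 in the male. In edgeR's quasi-likelihood test with Benjamini-Hochberg adjustment 0 of the 10 genes were called, where 0.0% of 23090 genes were called. The lowest adjusted p of any gene was 0.118. To 3 digits dmrt1, inha, star and cyp11a1 shared it with other genes, such as sox9, srd5a1 and hsd3b1. Unadjusted p was under 0.05 for 4 of the 10 genes and for 6954 of all genes. All 10 genes passed the filter on low counts.

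Other tools called some of them. DESeq2 gave 8 of the 10 genes an adjusted p and called 5 higher in testes (dmrt1, inha, star, cyp11a1 and cyp17a1), where it called 23.3% of genes higher. The count changed with the hearts in the fit: without the male heart edgeR called 6 of the 10 genes higher, where 31.3% of all genes were called, and cyp19a1 lower, where 15.5% were. Without the female heart it called 6 higher, where 34.1% of all genes were called. The 6 were dmrt1, amh, inha, star, cyp11a1 and cyp17a1. With a heart left out, only the pair of heads was left to set the spread of the fit. The fitted log2 fold change was 8.53 for dmrt1 (SE 1.38), 8.79 for cyp11a1 (SE 1.46) and 6.90 for cyp17a1 (SE 3.16, adjusted p = 0.208 by edgeR). It was -2.94 for foxl2 (SE 2.95), -2.78 for cyp19a1 (SE 2.64), -1.65 for nr5a1 (SE 2.23) and -1.34 for wt1 (SE 1.29), all with adjusted p of 0.473 or more. These folds use TMM scaling, which lowers testes against ovary by 1.53 log2 relative to CPM. The sign for wt1 turned with the scale: on log2(TPM + 1) testes was higher by 0.50. The median fold change of all genes was 2.08, or 0.91 with genes at 0 counts in a gonad set to 3 counts, and that of the 10 genes 7.59 and 4.75.

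Against the body tissues the gonads were each set against the mean of head, heart, lung, intestine and GI tract. For testes edgeR again called 0 of the 10 genes, where 0.0% of all genes were called, with an unadjusted p under 0.05 for 7 of the 10 and for 3514 of all genes. The lowest adjusted p was 0.0913, for dmrt1. DESeq2 called 6 higher (dmrt1, inha, star, cyp11a1, cyp17a1 and nr5a1), where 4.35% of genes were called higher. The log2 fold change of cyp11a1 was 5.96 (SE 0.62), that of inha 5.71 (SE 1.06) and that of wt1 3.22 (SE 0.79). With a head or heart left out, only the other pair was left to set the spread. Each such omission changed the edgeR count. It was 5 without the female head, where 3.35% of all genes were called higher, and 5 without the male head, where 2.89% were. It was 6 without the male heart, where 8.27% were, and 7 without the female heart, where 13.6% were.

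For ovary edgeR called nr5a1 and wt1 higher than the body tissues, 2 of 10, where 7.6% of all genes were called higher, and it called none lower, where 4.17% were. The log2 fold change of wt1 was 4.55 (SE 0.77, adjusted p = 0.0402). That of nr5a1 was 8.12 (SE 1.58, adjusted p = 0.0464). Male heart, intestine and GI tract, 3 of the libraries in that mean, had 0 counts of nr5a1, and the difference was 5.50 on log2(TPM + 0.1), where limma gave an adjusted p of 0.0935. Without the female head, where 8.0% of all genes were called higher, and without the male head, where 7.72% were, nr5a1 was called and wt1 was not. Without the male heart nr5a1 and wt1 were called, where 21.3% of all genes were, and without the female heart dmrt1 and cyp17a1 too, where 22.5% were. For dmrt1 this fit averages over tissues with 0 counts, and its 0.07 TPM in ovary was below both heads. For cyp17a1 the fit averages over intestine with 0 counts, and the 0.98 TPM in ovary was below lung (2.80) and just below female head (1.0). The genes inha and cyp11a1 were called lower in ovary without the male heart, where 30.8% of all genes were, and without the female heart, where 33.0% were. Over all alternatives the adjusted p ran from 2.55e-04 to 0.0791 for wt1 and from 6.16e-06 to 0.0935 for nr5a1. The fitted value for cyp11a1 in ovary against body tissues was -2.83 (SE 1.06, adjusted p = 0.128). The genes amh, inha and star had 0 counts in ovary and are given no fold.

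**Figure D4:**
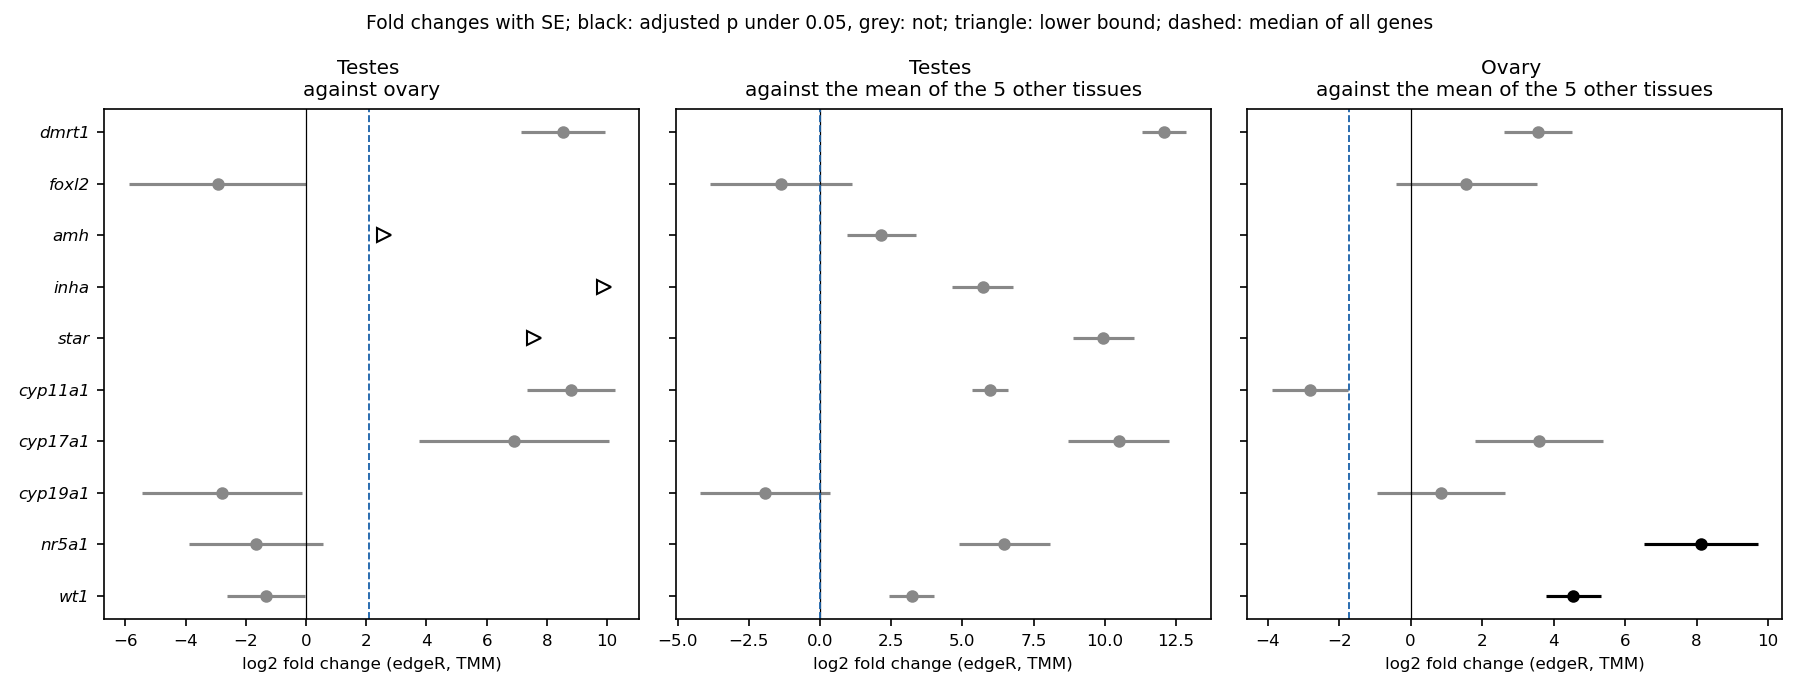
Fitted log2 fold change with SE (edgeR, TMM scaling) of the 10 genes in 3 comparisons, black where the adjusted p is under 0.05; triangles are lower bounds with ovary set to 3 counts, and genes at 0 counts in ovary are left out of the third panel. The dashed line is the median of all genes, at 2.08 for testes against ovary and -1.74 for ovary against the other tissues, and nr5a1 and wt1 in the third panel are the only black points.

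Female and male could be set side by side in head and heart, with 1 library of each sex per tissue and no test across animals. In the heads the counting interval of the CPM ratio lay above 1 for foxl2, star and cyp17a1 in the female and below 1 for inha. The star call rests on 10 counts in the female head and 2 in the male head. In the hearts it lay above 1 for foxl2, cyp11a1, cyp17a1, cyp19a1 and nr5a1 and below 1 for inha and amh. These intervals cover counting error only, and the share of all genes they would call was not computed. Against counting error the chi-square per degree of freedom was 101 for the heads (21266 genes) and 994 for the hearts (17369 genes). Differences beyond counting error were thus general in both pairs and not particular to these genes. The genes higher in female in both tissues were foxl2 and cyp17a1. For cyp17a1 the female head had 1.0 TPM and the male head 0.19, and the female heart had 2.40 and the male heart 0.03. The oocyte list moved the same way: it summed to 194 TPM in the female head, 19.1 in the male head, 4355 in the female heart and 16.4 in the male heart. Exocrine pancreas genes summed to 1051 TPM in the female head and 5.94 in the male head, and stomach genes to 1669 in the female head and 3.39 in the male head. The part of any of these lists in the differences was not tested. The only gene higher in male in both tissues was inha, at 0.394 (0.324 to 0.478) and 0.102 (0.0941 to 0.111) times the male CPM in female head and heart.

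Of 90 other genes of the same pathways, 80 had a higher TPM in testes than in ovary and 10 a lower one, 88.9% and 11.1%, where 80.3% and 17.1% of all 23090 genes tested did. Between the gonads edgeR called 0 genes of these lists, so values and DESeq2 calls are given, where DESeq2 called 23.3% of all genes higher and 11.9% lower. The median log2 fold change of all genes in edgeR was 2.08, or 0.91 with genes at 0 counts set to 3. Among inhibin and activin partners, 9 genes, DESeq2 called 5 higher in testes and none lower, and the median log2 fold change was 7.07, or 5.28 with genes at 0 counts set to 3. The activin beta subunit genes inhbb and inhba, whose products pair with the inha product, stood at 21.7 and 16.3 TPM in testes and 0 and 0.03 in ovary. The activin-binding relative gene fstl1 stood at 30.7 TPM in testes and 0.05 in ovary. It was higher in lung (255 TPM), female and male head (187 and 142) and female and male heart (56.9 and 119).

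Of all genes DESeq2 called 23.3% higher in testes and 11.9% lower (median 2.08, or 0.91 with bounds). Of 27 genes of steroid synthesis it called 8 higher in testes and 2 lower (median 2.32, or 1.55 with bounds). The 2 lower were the steroid reductase gene srd5a1, at 22.2 TPM in testes and 245 in ovary (DESeq2 adjusted p = 8.68e-06), and the ferredoxin gene fdx1, which passes electrons to cyp11a1, at 61.2 and 119 TPM (adjusted p = 0.0190). The broadly expressed gene hsd17b12 stood at 123 TPM in testes and 22.9 in ovary. The dehydrogenase gene hsd3b1, the step after cyp11a1, named after its values were seen, had 34.7 TPM in testes, 0 counts in ovary and at most 0.57 TPM in the other 7 libraries.

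Of 11 Sertoli cell and testis-promoting genes DESeq2 called 3 higher in testes and none lower (median 4.06, or 1.39 with bounds). For all genes the shares were 23.3% and 11.9% and the medians 2.08 and 0.91. The Sertoli factor gene sox9 stood at 70.7 TPM in testes and 0.23 in ovary, while the female head had 156 TPM and the male head 139. The tight junction gene cldn11 stood at 17.7 TPM in testes and 0 in ovary, and the secreted chaperone gene clu at 39.8 and 5.44. Lung had 27.7 TPM of cldn11, and the female and male head had 215 and 232 TPM of clu. Of 9 granulosa cell and ovary-promoting genes DESeq2 called 4 higher in testes and none lower (median 1.67, unchanged to 2 decimals with bounds). The 4 were nr2f2, rspo1, wnt4 and runx1, which had 0 to 2 counts in ovary; nr2f2, an orphan receptor gene of stromal cells, stood at 28.1 TPM in testes. The beta-catenin gene ctnnb1 stood at 137 TPM in testes and 199 in ovary, and the ligand gene bmp2 at 13.5 and 11.6.

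Of 13 factors of the early gonad DESeq2 called 4 higher in testes and 1 lower (median 4.79, or 0.45 with bounds). For all genes the shares were 23.3% and 11.9% and the medians 2.08 and 0.91, so with bounds this list lay below all genes. The zinc finger gene gata4 stood at 53.7 TPM in testes and 0.02 in ovary, and gata6 at 28.7 and 1.38, though both were more abundant in male heart (75.4 and 115 TPM). In the gut libraries gata4 stood at 47.9 TPM in intestine and 42.4 in GI tract, and gata6 at 64.1 and 41.8, for gata6 both above its testes level. The part of the gut transcripts of the testes library in these levels was not tested. The chromatin gene cbx2 stood at 34.5 TPM in testes and 23.3 in ovary. Of 18 hormone receptor genes DESeq2 called 2 higher in testes and 1 lower (median 1.56, or 0.91 with bounds). Neither the share of receptor genes called higher nor their median exceeded that of all genes. The estrogen receptor gene esr2 was the lower one, at 4.07 TPM in testes and 31.6 in ovary (DESeq2 adjusted p = 0.0494). The glucocorticoid receptor gene nr3c1 stood at 78.6 TPM in testes and 1.72 in ovary. In the body tissues nr3c1 ran from 64.0 TPM in female heart to 184 in lung. Of 5 other doublesex and mab-3 related genes DESeq2 called 1 higher (median 5.45, or 0.44 with bounds), dmrtb1, at 86.6 TPM in testes and 0.11 in ovary. Its relatives dmrt3 and dmrta1 stood at 0.76 and 0.52 TPM in testes and 0 and 0.42 in ovary.

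**Figure D5:**
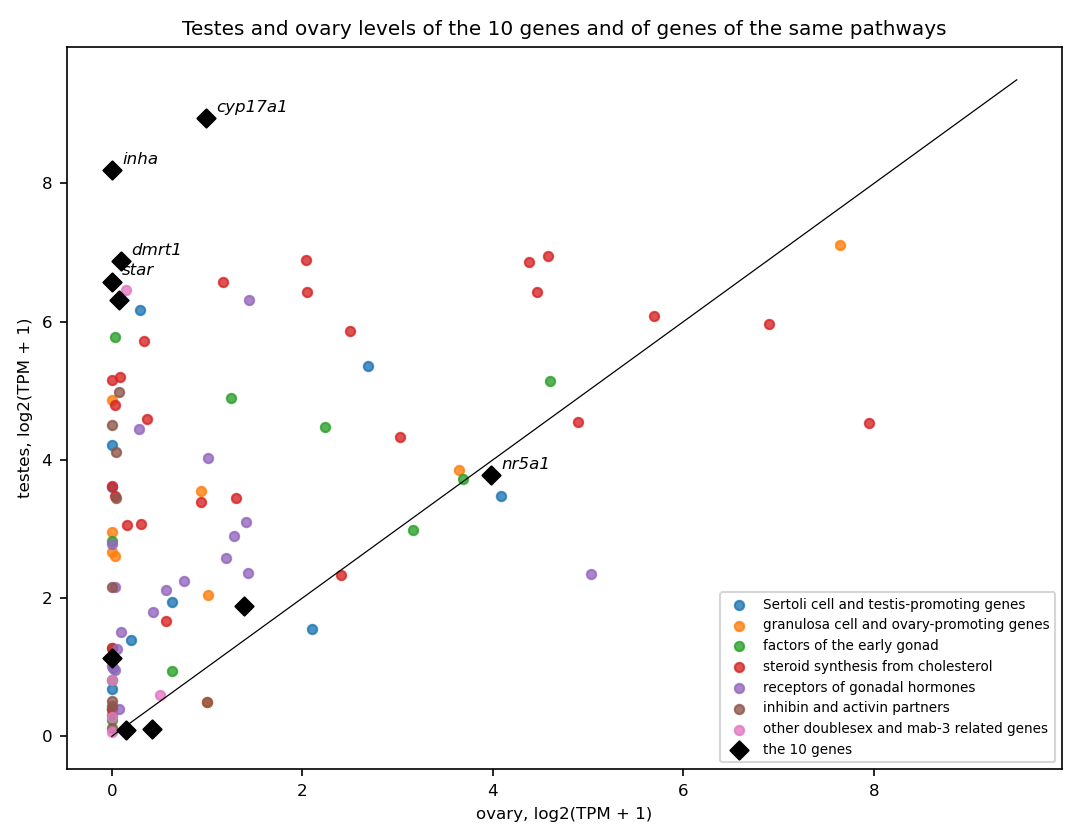
Level in testes against level in ovary, both as log2(TPM + 1), for the 10 genes (black diamonds) and for genes of 7 related lists (colours); the line marks equal levels. Most points lie above the line, many at an ovary level near 0, while nr5a1 lies near the line and the red point farthest below it is srd5a1, at 22.2 TPM in testes and 245 in ovary.

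Likeness was measured as the Euclidean distance of log2(TPM + 1) over the 9 libraries, among 14255 genes with a symbol that reach 1 TPM in any library. Nearest to dmrt1 were tmprss12 (distance 0.30), the meiotic recombinase gene dmc1 (0.36) and the piRNA pathway gene piwil1 (0.36). Nearest to star were piwil1 (0.55), dmrtb1 (0.63) and ccdc155 (0.65). The neighbours of cyp17a1 were hormad1 (1.47), pcsk4 (2.11) and odf2 (2.58), and those of cyp11a1 were nrbf2, spata22 and c17orf98 (1.20 to 1.39). These 3 steroid genes thus had meiotic or sperm genes among their nearest, and none of the 10 genes was among the 3 nearest of another.

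The remaining genes had neighbours of other kinds. Nearest to cyp19a1 were the neural transcription factor genes olig2 (0.75) and pax3 (0.78) and the gene mafa (0.83). Nearest to nr5a1 were the piRNA methyltransferase gene henmt1 (0.77), ccdc169 (0.78) and the meiotic gene mei4 (1.36), all at like levels in testes and ovary. No gene was close to inha: its nearest were the muscle genes itgb1bp2 (4.19) and pygm (4.23) and the axonemal gene spag16 (4.38). Those of wt1 were miox, znf33b and samd4b (0.74 to 1.04), those of foxl2 were wnt6, fam19a4 and zc3h12c (0.64 to 0.68) and those of amh were adamts12, samsn1 and il18 (0.33 to 0.45). For genes with 1 high library these distances mostly reflect that library.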

How the data were processed

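Messenger RNA was sequenced in 9 libraries of 7 frog tissues. The authors deposited a table of counts per gene, whole numbers not scaled for depth, and a table of TPM scaled by the authors within each library. Per the submitters' processing notes the tools included RSEM 1.3 and deepTools, whose roles are unstated. Aligner, genome build and annotation: not given in the sources used here. No coordinates are printed. Counts are read as rounded RSEM estimates, because 1272 cells hold a count of 0 and a TPM above 0. The row for reads with no gene name took 0.0113% to 1.78% of counts and was left out.

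Libraries were grouped by tissue label. edgeR 4.0.16 (quasi-likelihood, TMM, default low-count filter, 23090 genes kept, threshold 0.05) was run on counts in R 4.3.3, with DESeq2 1.42.0 and limma 3.58.1 as alternatives. SEs came from the F statistic. The edgeR code was tried on simulated counts with less spread than these data, which checks the code and not this design. Poisson, binomial and ratio intervals are exact, at 95%, and cover counting error only. In edgeR no gene of a list passed the threshold between the gonads, so list genes were named as the 3 most abundant in a gonad. For likeness the 3 nearest genes were named. The 10 genes, the lists and the tests were chosen with earlier results of these data known, and the pancreas and stomach lists after the data were seen. All 10 symbols are in the RefSeq table of UCB_Xtro_10.0, used for names only. One kidney marker is not reported here.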

Additional observations from a re-analysis of the deposited data

How the results depend on the processing

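Between testes and ovary edgeR called 0 of the 10 genes and 0 of all genes, also with RLE or upper-quartile factors and with no filter. Genes called higher or lower in testes numbered 4138 and 2123 with DESeq2 (5 of the 10 higher), 4795 and 445 with limma on log2(TPM + 1) (4 of the 10), 5804 and 312 on log2(TPM + 0.1) (4), and 1330 and 180 with sex as a term (5). With lung and female heart left out, chosen after seeing the data, they numbered 8468 and 3231 (6). Leaving out a head or heart gave 0 to 6 of the 10 higher and 0 to 1 lower, and 0 to 7836 and 0 to 3566 of all genes.

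For testes against the other tissues the settings in the same order gave 820 and 87 genes (6 of the 10 higher), 2285 and 31 (5), 1320 and 20 (4), 967 and 13 (5) and 3548 and 920 (7). Leaving out a head or heart gave 5 to 7 of the 10, and 658 to 3134 and 0 to 828 of all genes. With the mean of head, intestine and GI tract 0 were called.

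For ovary against the other tissues edgeR called 1755 genes higher and 963 lower. DESeq2 gave 3381 and 5306 (3 of the 10 higher, 1 lower). Limma gave 492 and 743 on log2(TPM + 1), and 914 and 4742 on log2(TPM + 0.1) (1 of the 10 higher in each). No filter gave 786 and 141 (0), and sex as a term 3158 and 3116 (3 higher, 1 lower). With lung and female heart left out they numbered 5236 and 7957 (5 higher, 2 lower). With the mean of head, intestine and GI tract they numbered 1219 and 821 (1 of the 10 higher). Leaving out a head or heart gave 1 to 4 of the 10 higher and 0 to 2 lower, and 1755 to 5172 and 396 to 7590 of all genes.

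Directions of single genes turned in 11 of 380 comparisons of a gene with an alternative, none of them a gene that edgeR called in that comparison. For testes against ovary these were nr5a1 with sex as a term (0.18) and wt1 with limma (0.50 and 0.70). For testes against the other tissues they were foxl2 with sex as a term (1.08), without the female heart (0.24, in a range of -1.58 to 0.24 when a head or heart was left out) and with lung and female heart left out (0.67), and cyp19a1 in that last setting (0.22). For ovary they were foxl2 (-0.18 and -0.23) and cyp19a1 (-0.39 and -0.08) with limma. The cause was not tested. No paired analysis was possible because the labels give no replicate numbers shared between tissues. Low counts limit foxl2, cyp19a1 and amh, whose gonad counts were 0 to 58. They also limit the ovary values of inha and star (0 counts), cyp11a1 (3 counts) and dmrt1 (5 counts).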

Other observations

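Gonadotropin signalling genes, named after their values were seen, showed levels outside the gonads. The luteinizing hormone receptor gene lhcgr stood at 3.34 TPM in testes and 0.48 in ovary, and the follicle-stimulating hormone receptor gene fshr at 5.86 TPM in testes and 0 in ovary. Both were highest in male heart, at 29.8 and 11.8 TPM, the library that was second for inha, against 1.37 and 0.78 TPM in female heart. The meiotic gene tex11 stood at 114 TPM in male heart and 48.5 in testes, while hormad1, sycp1 and dmrt1 stood at 0.09, 0.26 and 0.02 TPM in male heart.

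The pituitary hormone subunit gene lhb stood at 67.1 TPM in testes and 0 in ovary, above 8.46 and 10.5 TPM in female and male head. Its partner gene cga stood at 33.2 TPM in testes and 11.7 in ovary, below 287 and 124 in female and male head. The corticotropin precursor gene pomc stood at 0.09 TPM in testes and 0 in ovary, against 532 and 571 TPM in the heads.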
